A study of Chlorocebus sabaeus with 12 samples.

Results

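The genes that encode the subunits, activators, inhibitor and assembly factors of the proteasome were followed across 4 groups of COS-1 cells. They were chosen by name, as every gene on the array whose symbol begins with PSMA, PSMB, PSMC, PSMD, PSME, PSMF or PSMG followed by a number. The rule found 43 genes with 61 probes, out of 30982 gene names with 41000 probes on the array. Of these, 42 genes with 59 probes entered the tests, out of 20355 genes, and each gene was represented by its brightest probe. PSMA8, an alpha subunit known from testis, was well above background on 0 of 12 arrays and was not tested. No PSMG name was found on the array, but PSMG genes may be there under older names. DSCR2, counted among the partners of the proteasome below, is such a name.

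COS-1 cells are a line of African green monkey kidney cells, and their RNA was hybridised to 60-base probes designed for human transcripts. The cells were transiently transfected for 24 h with human FXR (gene symbol NR1H4), the nuclear receptor for bile acids, carrying a mutation of a serine that the series' title ties to phosphorylation. Of the 4 groups, S154D_CDCA and S154A_CDCA received chenodeoxycholic acid (CDCA), a bile acid that activates FXR, for 24 h at a concentration given in the labels as 50 mM, and S154D_DMSO and S154A_DMSO received 0.1% DMSO for 24 h. In S154D the serine is replaced by aspartate, which carries a negative charge, and in S154A by alanine, which cannot be phosphorylated. Each group had 3 arrays. Every group carried a mutant receptor on top of whatever COS-1 cells make themselves, and arrays of cells with unmutated FXR or of untransfected cells were not analysed here. The labels do not say that the replicates were separate cultures, so the errors and p-values measure the spread between arrays, which may be technical.

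The proteasome is the protease that degrades proteins tagged with ubiquitin in every cell. Its 20S core is a barrel of alpha and beta subunits with the active sites inside, and the 19S cap, built on a ring of ATPases, binds ubiquitinated proteins, removes the ubiquitin and unfolds the protein into the core. Other activators can take the place of the cap, and interferon exchanges the active beta subunits for counterparts that favour the making of peptides for antigen presentation.

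The following probes carry the comparisons below, and they are printed 5′ to 3′ as the scanner files give them, with G and C in capitals, because the GC content of a probe and its place in the transcript went together with the measured change. Coordinates are of human genome build hg17, and a span longer than 60 bases means that the probe crosses an exon junction. The first 2 are the probes of genes that passed the test, the next 4 are the 4 probes of PSMC6, the following 4 are the probes nearest the 5′ end in PSMD4, PSMD3, PSMD1 and PSMF1, and the last 3 belong to catalytic beta subunits.
PSMD14 (chr2:162090934-162090993, plus strand, GC 40%): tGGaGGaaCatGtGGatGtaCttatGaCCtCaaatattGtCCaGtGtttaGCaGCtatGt
PSMD2 (chr3:185506272-185506331, plus strand, GC 45%): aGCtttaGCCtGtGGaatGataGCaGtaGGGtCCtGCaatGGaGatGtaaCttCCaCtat
PSMC6 (chr14:52255492-52257373, plus strand, GC 35%): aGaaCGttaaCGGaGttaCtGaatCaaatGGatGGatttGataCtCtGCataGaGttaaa
PSMC6 (chr14:52257595-52257654, plus strand, GC 40%): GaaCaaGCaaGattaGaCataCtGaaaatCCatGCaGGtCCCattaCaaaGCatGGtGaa
PSMC6 (chr14:52260473-52263994, plus strand, GC 43.3%): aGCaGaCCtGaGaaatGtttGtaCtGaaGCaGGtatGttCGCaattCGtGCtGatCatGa
PSMC6 (chr14:52264017-52264076, plus strand, GC 38.3%): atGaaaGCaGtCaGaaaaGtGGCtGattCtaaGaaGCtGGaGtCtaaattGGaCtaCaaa
PSMD4 (chr1:148051655-148051909, plus strand, GC 55%): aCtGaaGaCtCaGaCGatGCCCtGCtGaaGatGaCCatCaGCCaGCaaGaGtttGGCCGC
PSMD3 (chr17:35406100-35407150, plus strand, GC 48.3%): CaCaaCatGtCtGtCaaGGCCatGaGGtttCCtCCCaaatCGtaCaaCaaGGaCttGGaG
PSMD1 (chr2:231836560-231843826, plus strand, GC 36.7%): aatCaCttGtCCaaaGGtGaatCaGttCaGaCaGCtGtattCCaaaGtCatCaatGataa
PSMF1 (chr20:1063812-1063871, plus strand, GC 51.7%): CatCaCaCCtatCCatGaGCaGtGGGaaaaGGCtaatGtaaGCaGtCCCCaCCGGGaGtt
PSMB5 (chr14:22565325-22565384, minus strand, GC 55%): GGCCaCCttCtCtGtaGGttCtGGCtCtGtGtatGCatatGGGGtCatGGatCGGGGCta
PSMB8 (chr6:32918001-32918468, minus strand, GC 55%): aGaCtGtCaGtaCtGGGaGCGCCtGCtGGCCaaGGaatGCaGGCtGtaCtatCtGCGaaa
PSMB10 (chr16:66526048-66526232, minus strand, GC 60%): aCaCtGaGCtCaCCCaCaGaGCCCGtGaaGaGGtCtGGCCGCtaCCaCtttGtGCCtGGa

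The share of spots well above background was 61.6% to 79.8% per array, and the 75th percentile of the signal lay between 1234 and 2107. The 12 arrays lay on 4 slides. The 3 S154A_DMSO arrays, and no others, lay at position 1 of a slide, so position cannot be told apart from that group. The S154D_CDCA arrays were on slides 2, 3 and 2 and the S154D_DMSO arrays on slides 1, 4 and 3, so only slide 3 held both groups, and slide 4, with S154D_DMSO replicate 2 and S154A_CDCA replicate 2, was scanned on another day. The FXR gene, NR1H4, was well above background on all 12 arrays, between 7.46 and 7.95 on the log2 scale, and its probe does not tell the mutants apart. Of 14 kidney epithelial markers 9 were well above background on all 12 arrays, KRT8, KRT18 and CDH1 among them. CUBN, PAX2, SLC12A1, SLC34A1 and LRP2 were so on 9, 7, 5, 4 and 2 arrays. Of the others, 7 of 10 fibroblast, 5 of 9 leukocyte and 4 of 8 hepatocyte markers were so on all 12. Among these were the leukocyte markers CD3E, CD14, LYZ, CD68 and ITGAM and the hepatocyte markers ALB, SERPINA1, TF and CYP3A4. The fibroblast marker COL1A2, the leukocyte marker PTPRC and the hepatocyte markers APOB and F9 reached that level on 0 of 12.

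All values below are log2 processed signals minus the 75th percentile of the array, so that 0 is the level of that percentile, and changes are differences of such values. The 42 genes were among the bright ones, with a median level of 4.12, against -0.90 over all genes tested, and each was well above background on all 12 arrays, as were 17837 of all 20355. All 43 symbols are also in the RefSeq annotation of the green monkey. Their arrays agreed closely within groups, with a median pooled SD of 0.126, against 0.210 over all genes. PSMB8 had the smallest pooled SD, 0.065, and PSMD11, a cap subunit, the largest, 0.373. PSMD11 stood at 1.97 in S154D_CDCA replicate 1 and at 2.41 in S154A_DMSO replicate 2, and between 2.84 and 3.17 on the other 10 arrays.

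**Figure D1:**
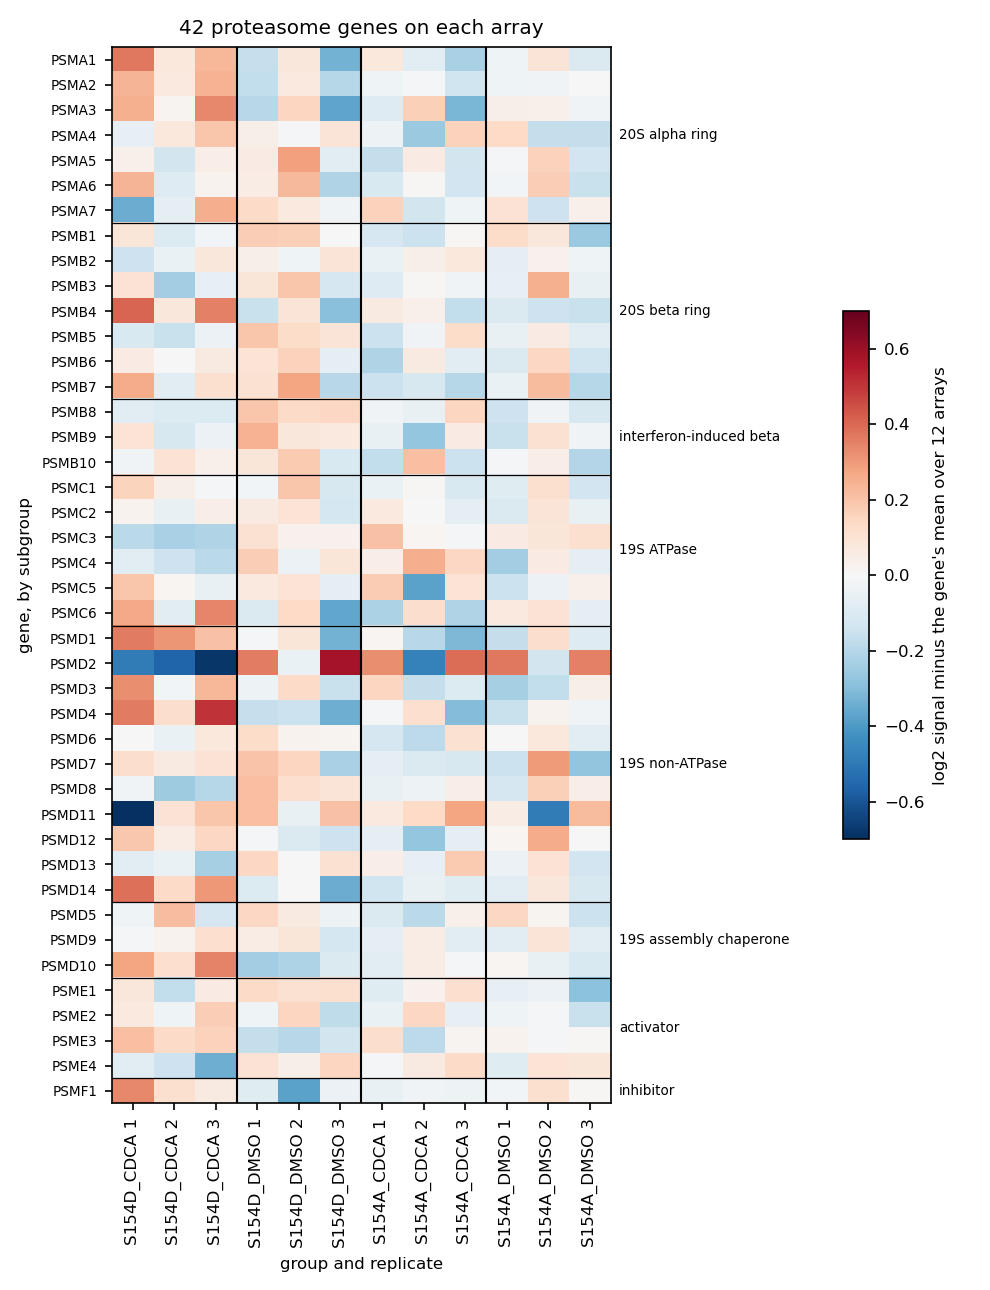
Each row is 1 of the 42 proteasome genes tested, each column 1 of the 12 arrays, and the colour is the log2 signal minus the gene's mean over the 12 arrays, with colours saturating at 0.7 in either direction. PSMD2 is low on all 3 S154D_CDCA arrays and on S154A_CDCA replicate 2, and PSMD4, PSMD10 and PSMD14 are high on the 3 S154D_CDCA arrays.

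CDCA was compared with DMSO in cells with FXR S154D. 4 of 42 proteasome genes passed the test (limma, adjusted p under 0.05 after Benjamini-Hochberg adjustment over all 20355 genes), 3 higher with CDCA and 1 lower. That is 9.52% of the genes, against 10.2% of all genes tested, of which 6.45% were higher and 3.74% lower. All 4 encode parts of the 19S cap or a factor that assembles it: PSMD4 and PSMD2, which bind ubiquitin, PSMD14, which cuts ubiquitin off the substrate, and PSMD10, an assembly chaperone also known as gankyrin. Of the 42 genes tested, 6 encode ATPases of the cap, 11 its other subunits and 3 factors that assemble it. As a group the 42 genes were evenly divided, with 21 changes above 0 and 21 below, and a median change of 0.01, against -0.01 over all genes. In these bulk samples of 1 cell line, a change in all cells and a larger change in some cannot be told apart.

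PSMD4 (chr1:148052941-148053000, hg17, plus strand, GC 35%) stood at 4.81, 4.57 and 4.95 on the S154D_CDCA arrays, against 4.28, 4.29 and 4.10 on the S154D_DMSO arrays. The groups did not overlap, and PSMD4 rose by 0.55 ± 0.14 (SE), or 1.46-fold, at an adjusted p of 0.0386 in limma. PSMD10 (chrX:107134295-107134354, minus strand, GC 38.3%) stood at 2.59, 2.43 and 2.66 with CDCA, against 2.07, 2.10 and 2.21 with DMSO. Again every CDCA array was above every DMSO array, and the rise was 0.43 ± 0.10, or 1.35-fold, at an adjusted p of 0.0306 in limma.

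PSMD14 stood at 5.03, 4.78 and 4.95 on the S154D_CDCA arrays, against 4.55, 4.65 and 4.30 on the S154D_DMSO arrays. The groups were apart, and the rise was 0.42 ± 0.12, or 1.34-fold (adjusted p = 0.0473, limma). PSMD2 moved the other way: it stood at 3.12, 3.04 and 2.93 with CDCA, against 3.97, 3.56 and 4.19 with DMSO. Its groups were also apart, and it fell by 0.87 ± 0.25 on the log2 scale, to 0.545 times the DMSO level (adjusted p = 0.0493, limma). PSMD2 was also low, at 3.13, on S154A_CDCA replicate 2, whose 2 companions stood at 3.93 and 4.00, while the S154A_DMSO arrays stood at 3.98, 3.48 and 3.96.

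**Figure D2:**
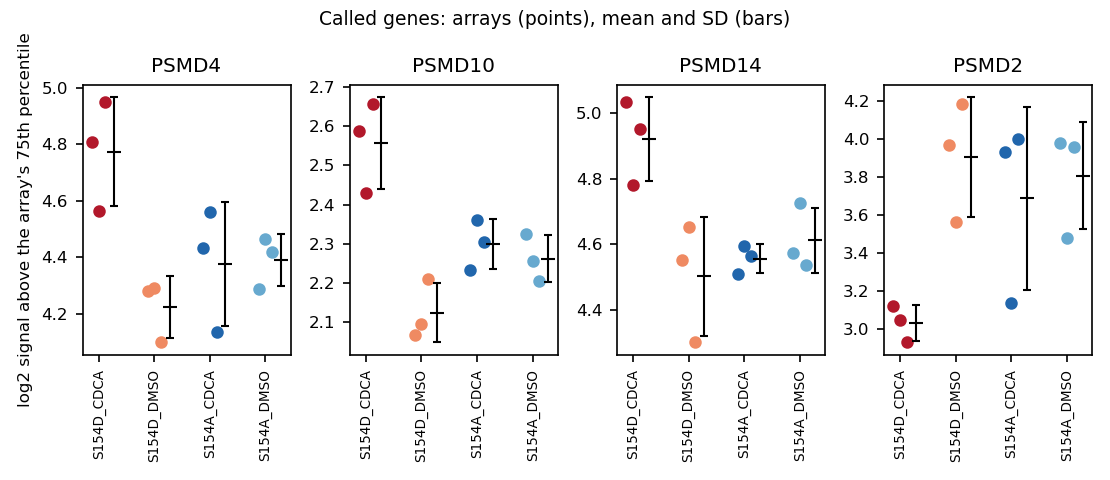
Points are the 3 arrays of each group, black bars the mean and SD, and the vertical axis, which does not start at 0 and differs between panels, is the log2 signal above the array's 75th percentile. For PSMD4, PSMD10 and PSMD14 the S154D_CDCA arrays lie above the S154D_DMSO arrays, and for PSMD2 below them.

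These calls lay close to the threshold. The nearest gene outside it was PSME3 (adjusted p = 0.0514, limma), and the largest adjusted p inside it was that of PSMD2. Of 24 other settings, PSMD10 passed in 13, PSMD4 in 6, PSMD2 in 5 and PSMD14 in 5, and all 4 kept their direction in all 24. Outside these 4 genes, PSMB4 passed in 3 of the 24, PSME3 in 2 and PSMD8, another cap subunit, in 1. With slide as a block 0 of the 42 passed, and the changes were 0.45 for PSMD4, 0.39 for PSMD10, 0.38 for PSMD14 and -0.93 for PSMD2, with adjusted p of 0.176, 0.161, 0.156 and 0.138 in limma. Slide 3 alone, with 1 array of each group, gave 0.47 for PSMD4, 0.22 for PSMD10, 0.48 for PSMD14 and -1.14 for PSMD2. The number of genes that passed was 0 without S154D_CDCA replicate 3, S154D_DMSO replicate 1 or S154D_DMSO replicate 3, 1 without S154D_CDCA replicate 1, S154A_CDCA replicate 1 or any 1 of the S154A_DMSO arrays, and 2 without S154D_CDCA replicate 2 or S154A_CDCA replicate 3.

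Before adjustment 15 of the 42 genes, 35.7%, had a p under 0.05, against 30.0% of all genes, and the arrays of the groups did not overlap for 17 of the 42, against 33.7% of all genes. The 95% interval of the change lay within 1.5-fold in either direction for 31 of the 42, against 37.3% of all genes. The intervals of the 42 were also narrower, with a median SE of 0.12, against 0.17 over all genes.

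Among the 7 alpha subunits of the 20S core, which gate the entrance, 0 passed the test in S154D cells (2 had an unadjusted p under 0.05), with changes between -0.11 and 0.36. PSMA6 stood at 5.75, 5.43 and 5.54 with CDCA and at 5.57, 5.74 and 5.30 with DMSO, and its groups overlapped. PSMA4, the dimmest alpha probe tested, differed by 0.03 (95% interval -0.27 to 0.32). Among the 7 constitutive beta subunits, 0 passed (2 unadjusted), and the changes lay between -0.24 and 0.40. PSMB5 carries the chymotrypsin-like site, and it stood at 4.50, 4.45 and 4.57 with CDCA and at 4.80, 4.74 and 4.70 with DMSO. These groups did not overlap, and the difference of -0.24 had an adjusted p of 0.132 in limma.

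PSMB6, with the caspase-like site, differed by -0.02 (95% interval -0.28 to 0.23), and PSMB7, with the trypsin-like site, by 0.04 (-0.30 to 0.37). Neither of these 2 reached the threshold, and both intervals lay within 1.5-fold. PSMB3, the dimmest probe of the beta ring, differed by -0.12 (-0.41 to 0.17). PSMB4, a structural subunit, had the highest value of the ring, 0.40 (0.12 to 0.69, adjusted p = 0.0698 in limma).

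The 3 interferon-induced subunits replace the 3 catalytic ones in the immunoproteasome. PSMB8 stood at -0.84, -0.87 and -0.87 with CDCA and at -0.57, -0.64 and -0.62 with DMSO. The groups did not overlap, and the difference of -0.25 ± 0.09 had an adjusted p of 0.0923 in limma. PSMB9 differed by -0.15 (95% interval -0.41 to 0.11) and PSMB10 by -0.02 (-0.31 to 0.27). All 3 values were below 0 and 0 of 3 passed the test (1 unadjusted), and their probes had 55% to 60% GC.

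The 6 ATPases, which form the motor of the cap, held 0 genes that passed (1 unadjusted). PSMC3, with a value of -0.27 (95% interval -0.46 to -0.07, adjusted p = 0.0766 in limma), was the lowest of them. PSMC1, the brightest ATPase probe, differed by 0.04 (-0.20 to 0.29) and PSMC4, the dimmest, by -0.21 (-0.45 to 0.03). The 11 other cap subunits held 3 of the 4 genes that passed and ranged from -0.87 for PSMD2 to 0.55 for PSMD4. PSMD3, their brightest probe, differed by 0.20 (-0.10 to 0.51), and PSMD12, their dimmest, by 0.21 (-0.03 to 0.45). Of the other 2 assembly chaperones, PSMD9 differed by 0.04 and PSMD5 by -0.03.

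The activators gave values on either side of 0. PSME3, the nuclear activator also called PA28 gamma, stood at 0.63, 0.55 and 0.58 with CDCA and at 0.25, 0.22 and 0.29 with DMSO. Its groups were apart, with a difference of 0.33 ± 0.09 (SE). Its other kept probes, both of 41.7% GC, differed in sign, with 0.63 ± 0.31 and -0.05 ± 0.19. PSME4, also called PA200, differed by -0.29 (95% interval -0.51 to -0.06, adjusted p = 0.0937 in limma). PSME1 and PSME2 form the interferon-induced activator, and they differed by -0.13 (-0.37 to 0.11) and 0.09 (-0.16 to 0.34). PSMF1, the inhibitor known as PI31, stood at 0.46, 0.24 and 0.19 with CDCA and at 0.04, -0.25 and 0.09 with DMSO. Its groups were apart, and the difference of 0.34 had an adjusted p of 0.0834 in limma.

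CDCA was compared with DMSO in cells with FXR S154A by the same test. 0 of 42 proteasome genes passed in limma, against 0.133% of all genes tested, or 27 genes, and 0 of 42 had an unadjusted p under 0.05, against 6.04% of all genes. The median change was -0.02, against -0.04 over all genes, and the median size of a change was 0.06, against 0.13. The 42 genes were also brighter and less variable than all genes, with a median SE of 0.12, against 0.17. The part of this in the size of their changes was not tested. The 95% interval of the change lay within 1.5-fold in either direction for 40 of 42, against 56.4% of all genes, and the groups did not overlap for 2, PSMD12 and PSMF1, against 11.9% of all genes.

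The 4 genes with the smallest p in S154A cells were PSMC4 (0.23, 95% interval -0.01 to 0.47), PSMD12 (-0.23, -0.46 to 0.01), PSME1 (0.15, -0.09 to 0.39) and PSMB8 (0.12, -0.07 to 0.32). The other kept probe differed by -0.10 ± 0.10 for PSMD12 and by -0.06 ± 0.11 for PSME1. The smallest adjusted p was 0.833 in limma, that of PSMC4. PSMD4 stood at 4.43, 4.56 and 4.14 on the S154A_CDCA arrays, against 4.29, 4.46 and 4.42 on the S154A_DMSO arrays. PSMD10 stood at 2.23, 2.36 and 2.31 with CDCA and at 2.33, 2.26 and 2.20 with DMSO. Both genes overlapped between the groups, with differences of -0.01 (-0.32 to 0.29) and 0.04 (-0.17 to 0.25). PSMD14 differed by -0.06 (-0.31 to 0.20) and PSMD2 by -0.12 (-0.66 to 0.43).

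**Figure D3:**
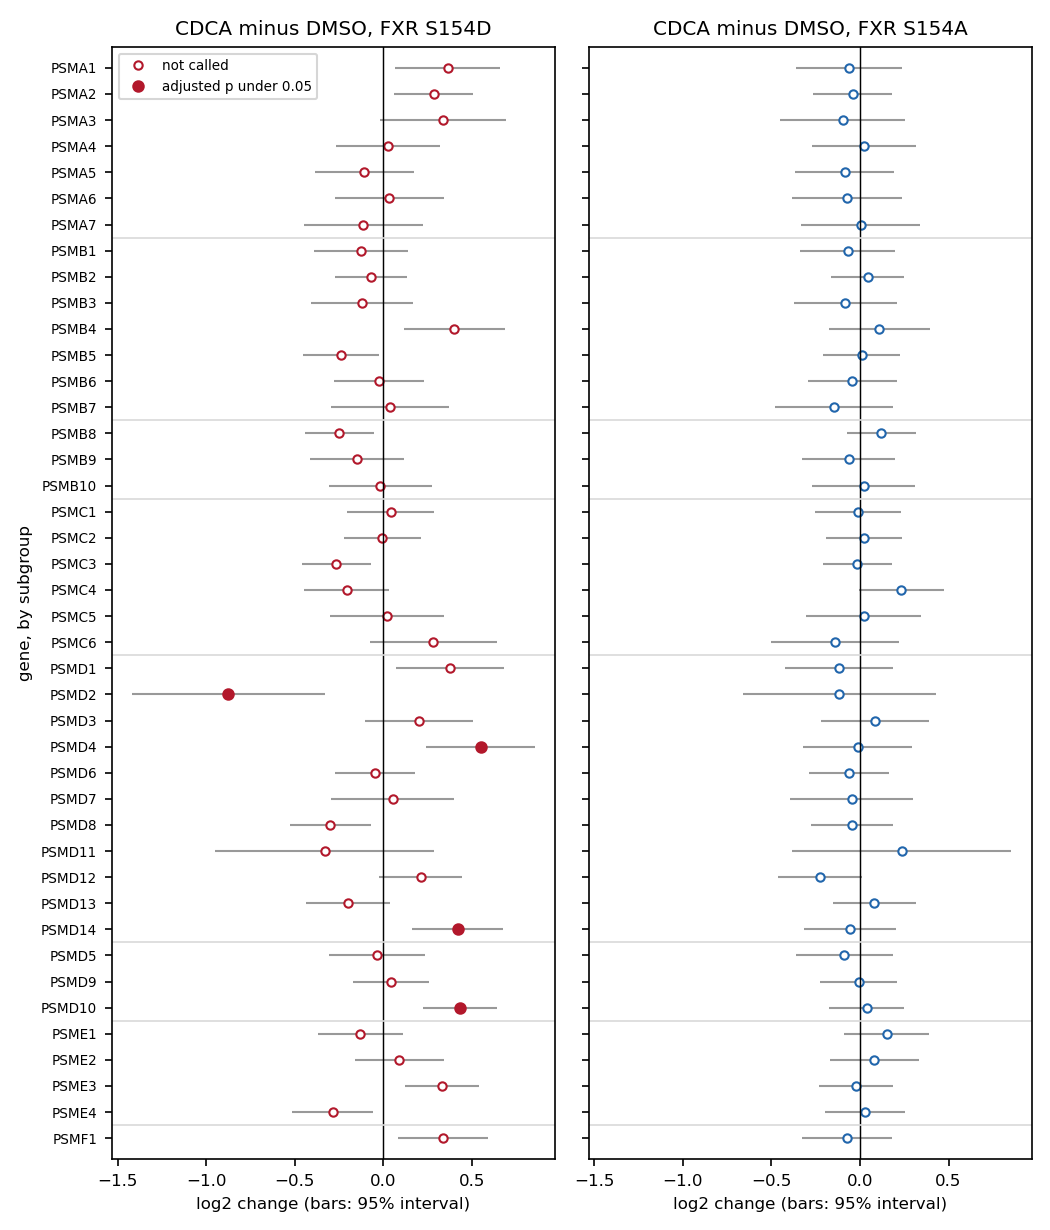
Each row is a proteasome gene, the horizontal axis the log2 change with CDCA against DMSO, and bars are 95% intervals from limma, in FXR S154D cells on the left and FXR S154A cells on the right. Filled points mark the 4 genes with an adjusted p under 0.05, PSMD4, PSMD10, PSMD14 and PSMD2, all in S154D cells.

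The difference between these responses was tested as an interaction, S154D minus S154A. 0 of 42 genes passed in limma, against 0.147% of all genes tested, and 11 had an unadjusted p under 0.05, against 22.4% of all genes. The 4 smallest p belonged to PSMB8 (-0.37 ± 0.12, SE), PSMD10 (0.40 ± 0.13), PSMD14 (0.48 ± 0.16) and PSMD12 (0.44 ± 0.15), with adjusted p between 0.138 and 0.141 in limma. PSMD4 had a difference in response of 0.56 (95% interval 0.13 to 1.00) and PSMD2 of -0.76 (-1.53 to 0.01). A difference in response between the mutants was thus not shown for any of the genes that passed in S154D cells.

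The mutants were also set against each other under each treatment, comparisons that use the same arrays again. In DMSO, 0 of 42 passed in limma, against 0% of all genes tested, 2 had an unadjusted p under 0.05, against 4.34% of all genes, and the groups did not overlap for 6, against 11.0%. The change was above 0 for 30 of the 42, all 7 constitutive and all 3 interferon-induced beta subunits among them, with a median of 0.06, against 0.0001 over all genes. That median was 0.0058 with normexp background correction and 0.015 with quantile normalisation. The change also went together with probe GC, with a Spearman correlation of 0.62 across the 42 genes and 0.31 over all genes. Of the 10 beta subunits 5 had probes of 53.3% to 60% GC, and over all genes at 50% GC or more 67% of changes were above 0. When the trend of the signal with probe GC was subtracted within each array, 28 of the 42 changes were above 0, with a median of 0.04. The part of probe GC in these values was not tested gene by gene. PSMB8 stood at -0.57, -0.64 and -0.62 in S154D_DMSO, against -0.91, -0.80 and -0.88 in S154A_DMSO. The groups were apart by 0.25 ± 0.09 (SE), at an adjusted p of 0.996 in limma.

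PSME1 stood at 5.61, 5.58 and 5.59 in S154D_DMSO, against 5.42, 5.44 and 5.19 in S154A_DMSO. That difference was 0.25 ± 0.11, and the groups did not overlap. The other kept probe of PSME1, dimmer and also of 45% GC, differed by -0.04 ± 0.11, so the difference is that of 1 probe. The next smallest p were those of PSME3 (-0.17, 95% interval -0.38 to 0.04) and PSMF1 (-0.20, -0.45 to 0.06). Their other kept probes differed by -0.51 ± 0.31 and -0.04 ± 0.19 for PSME3 and, with the opposite sign, by 0.08 ± 0.12 for PSMF1.

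With CDCA, 0 of 42 genes passed in limma for S154D against S154A, against 0.403% of all genes tested, 12 had an unadjusted p under 0.05, against 23.6%, and the groups did not overlap for 17, against 28.6%. PSMD1, a large scaffold subunit of the cap, stood at 4.46, 4.41 and 4.31 in S154D_CDCA, against 4.11, 3.90 and 3.79 in S154A_CDCA. The groups were apart by 0.46 ± 0.14, with the smallest adjusted p of the 42, 0.109 in limma. The next 3 were PSMD14 (0.37, 95% interval 0.11 to 0.62), PSMC3 (-0.28, -0.47 to -0.08) and PSMD4 (0.40, 0.09 to 0.70). In this comparison the other kept probe of PSMD1 had the opposite sign, -0.33 ± 0.16, and that of PSMD4 differed by -0.07 ± 0.11.

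The GC content of the probe went together with the change in S154D cells. Across the 42 genes the Spearman correlation between change and probe GC was -0.72 in S154D cells and 0.08 in S154A cells, and over all 20355 genes it was -0.56 and -0.11. For S154D against S154A with CDCA it was -0.63 across the 42 genes and -0.39 over all genes, and for the difference in response -0.66 and -0.40, so the values given above for those comparisons also went together with probe GC. These are correlations across genes on the same arrays and genes are not independent replicates. At 40% GC or less, 14 of 16 genes had a change above 0 in S154D cells, with a median of 0.27, and over all genes in that range 76.3% did, with a median of 0.27. At 50% GC or more, 0 of 7 genes were above 0, with a median of -0.24, and over all genes in that range 15.0% were, with a median of -0.29. Between these bounds the median of 19 genes was -0.07. The bounds were chosen after the values were seen.

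The 3 genes that rose had probes of 35% to 40% GC, and the part of probe GC in their change was not tested gene by gene. After the trend with GC was subtracted within each array, 0 of 42 genes passed in limma and 6 had an unadjusted p under 0.05, against 18.0% of all genes. PSMD4 was then at 0.23 ± 0.15 (SE), PSMD10 at 0.25 ± 0.11 and PSMD14 at 0.31 ± 0.14. PSMD2, at 45% GC, stayed at -0.83 ± 0.24 (adjusted p = 0.165, limma).

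**Figure D4:**
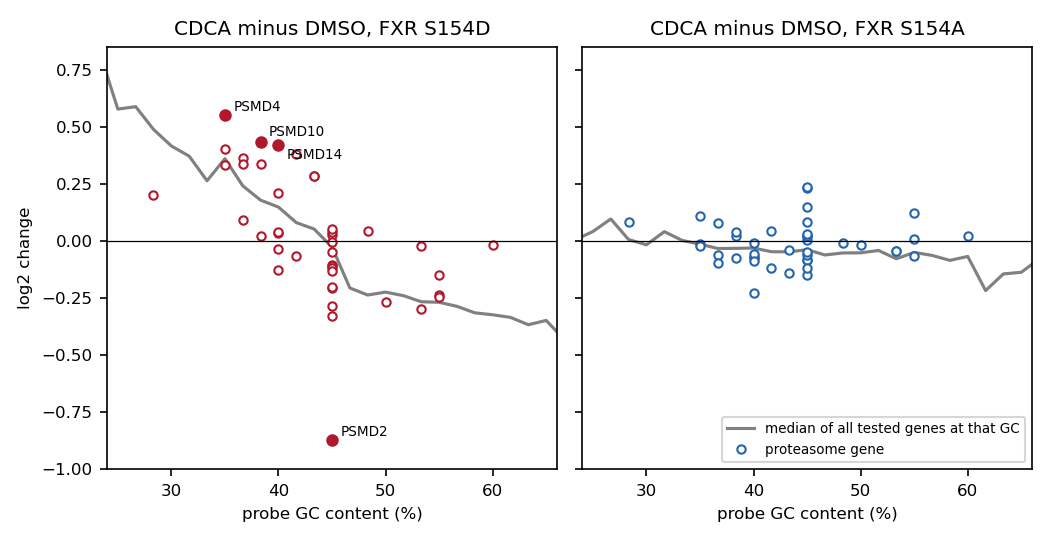
Points are the 42 proteasome genes, by the GC content of the probe in percent (horizontal) and the log2 change with CDCA against DMSO (vertical), in FXR S154D cells on the left, where the 4 filled and named points passed the test, and FXR S154A cells on the right. The grey line is the median of all tested genes at each GC content with at least 20 genes. In S154D cells 14 of 16 points at 40% GC or less lie above 0 and 0 of 7 at 50% or more do, and in S154A cells the points lie between -0.23 and 0.23.

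13 genes had 2 or more probes well enough above background to be kept, 30 probes in all. Their changes in S154D cells differed in sign within 8 of the 13 genes. In a fit over all 26898 kept probes, 6 of the 59 proteasome probes passed in limma, against 11.6% of all probes. These were the probes of PSMD2, PSMD4, PSMD10 and PSMD14 described above, 1 of the 4 PSMC6 probes and the PSMD3 probe printed above.

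PSMD4 showed both signs. The printed probe of 55% GC stood at 3.70, 3.70 and 3.70 on the S154D_CDCA arrays, against 3.82, 4.02 and 3.78 on the S154D_DMSO arrays. Its groups did not overlap, and the difference was -0.18 ± 0.11 (adjusted p = 0.299, limma), where the probe of 35% GC, nearer the 3′ end, rose by 0.55. The rise of PSMD4 is thus that of 1 of its 2 probes. These probes are annotated to different transcripts of the gene, and the part of this in the split was not tested. PSMD2, PSMD10 and PSMD14 had 1 probe each on the array, so agreement between probes cannot be read for them.

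PSMD3, a cap subunit, had the widest split. Its printed probe of 48.3% GC stood at 3.51, 2.99 and 2.75 with CDCA, against 3.74, 3.78 and 3.77 with DMSO. It fell by 0.68 ± 0.19 on the log2 scale (adjusted p = 0.0428, limma), whereas the brighter probe of 28.3% GC, nearer the 3′ end, differed by 0.20.

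PSMD1 and PSMF1 split likewise, with 0.38 and 0.34 at the probe nearer the 3′ end and -0.37 and -0.35 at the printed probe nearer the 5′ end. For PSMD1 the probe nearer the 5′ end had the lower GC, 36.7% against 41.7%. PSMB1, whose 2 probes both have 40% GC, differed by 0.29 at the probe nearer the 3′ end and by -0.13 at the other.

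The 4 PSMC6 probes had 1 sign. In the printed order their changes in S154D cells were 0.48, 0.36, 0.28 and 0.54, and the first passed the test at an adjusted p of 0.0319 in limma. It stood at 2.81, 2.71 and 2.95 with CDCA, against 2.39, 2.46 and 2.19 with DMSO, and these groups did not overlap. The third is the brightest and stood for the gene. In S154A cells the 4 changes lay between -0.14 and -0.03.

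The place of the probe in the transcript also went together with the change. For 12 genes with probes at least 100 bases apart, the change with CDCA in S154D cells was higher at the probe nearest the 3′ end than at the one nearest the 5′ end in 10, with a median difference of 0.29. Over all 4781 genes with such probes it was higher in 71.9%, with a median of 0.26, and over the 2361 of them whose probes were within 5 points of GC in 68.4%, with a median of 0.17. The sign also went with the GC of the pair. The change was higher at the probe nearest the 3′ end in 86.1% of the 1833 genes where that probe had the lower GC by more than 5 points, with a median of 0.46, but in 41.6% of the 587 genes where that probe had the higher GC by as much, with a median of -0.09. In S154A cells it was higher in 7 of the 12, with a median difference of 0.03, and in 46.4% of all such genes. PSMD9 went the other way, with -0.50 at the probe nearer the 3′ end and 0.04 at the other. The part of probe position in the changes of the 42 genes was not tested.

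**Figure D5:**
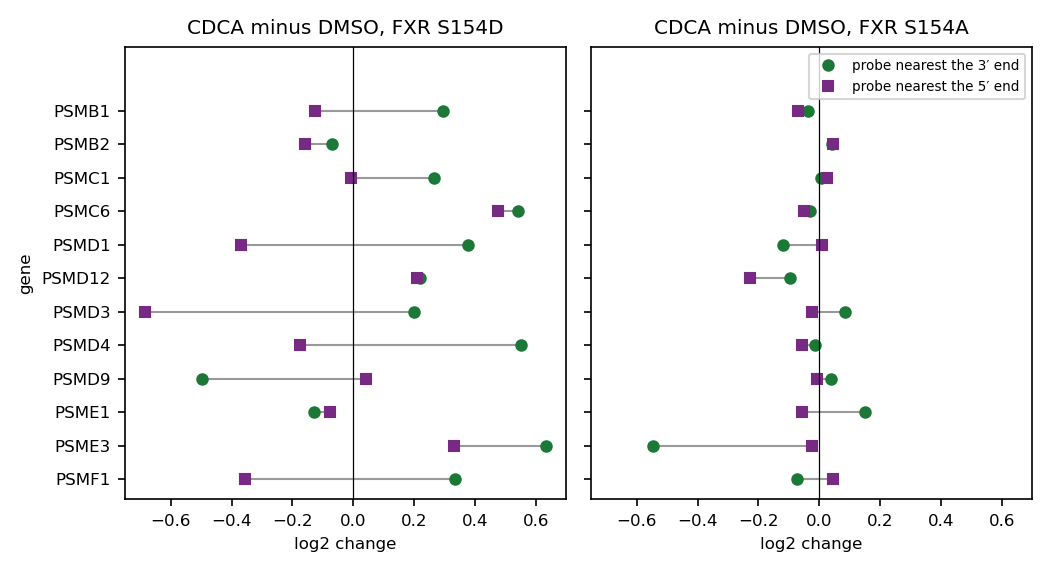
For each of 12 proteasome genes the circle is the log2 change with CDCA against DMSO at the probe nearest the 3′ end and the square that at the probe nearest the 5′ end, in FXR S154D cells on the left and FXR S154A cells on the right. The circle lies to the right of the square in 10 of 12 genes in S154D cells and in 7 of 12 in S154A cells.

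Genes that act with the proteasome under other names were read beside it in 4 lists. Of their 55 genes tested, 7 passed with CDCA against DMSO in S154D cells, 12.7%, against the 10.2% of all genes given above (6.45% higher and 3.74% lower). Of 11 tested partners of the proteasome, 1 rose with CDCA in S154D cells and 0 fell. That gene was POMP, the chaperone of core assembly, which stood at 2.51, 2.12 and 2.43 on the S154D_CDCA arrays, against 1.60, 2.01 and 1.57 on the S154D_DMSO arrays. Its groups were apart, and it rose by 0.63 ± 0.16 (SE, adjusted p = 0.0375, limma) at a probe of 36.7% GC. The median change of the 11 partners was 0.23, against -0.01 over all genes. The partners' probes had 35% to 45% GC, apart from that of ADRM1 at 65%. Over all genes, the median change in S154D cells was 0.36 at 35% GC and -0.03 at 45% GC. The part of probe GC in the partners' median was not tested.

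Of 11 regulators of proteasome gene transcription 0 rose and 2 fell, and their median change was -0.07, with 5 of 11 above 0. MAFK, a small Maf protein that pairs with NRF factors, fell by 0.53 ± 0.12, and STAT3, a transcription factor of cytokine signalling, fell by 0.69 ± 0.18 (adjusted p = 0.0326 and 0.0412, limma). Their probes had 45% and 38.3% GC. Of the NRF factors, NFE2L1, known to raise proteasome genes when the proteasome is inhibited, differed by -0.64, and its relatives NFE2L2 and NFE2L3 by 0.60 and 0.35. None of these 3 passed, with adjusted p of 0.0517, 0.079 and 0.07 in limma.

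Of 16 reported genes for ubiquitin and for factors that carry ubiquitinated proteins to the proteasome, 1 rose and 0 fell. UFD1L, a cofactor of the segregase VCP, rose by 0.49 ± 0.12 at a probe of 35% GC (adjusted p = 0.0345, limma). The median change of the 16 was -0.16.

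Of 17 reported genes of antigen presentation and the interferon response, which share their induction with PSMB8, PSMB9 and PSMB10, 0 rose and 3 fell. These were HLA-B by 0.49, HLA-E by 0.49 and IRF1, an interferon-induced transcription factor, by 0.55 on the log2 scale, with adjusted p of 0.0303, 0.0306 and 0.0467 in limma. Class I genes have near-identical copies that 1 probe can read together, so the HLA values are uncertain as to the gene. The probes of these 3 genes had 53.3% to 60% GC, and the median change of the 17 was 0.05. In the other comparisons 0 of the 55 genes of these 4 lists passed in limma, and the number with an unadjusted p under 0.05 was 1 for CDCA in S154A cells, 3 for S154D against S154A in DMSO, 14 for the same with CDCA and 14 for the difference in response. These are 1.82%, 5.45%, 25.5% and 25.5% of the 55, against 6.04%, 4.34%, 23.6% and 22.4% of all genes.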

How the data were processed

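Total RNA of 12 samples was labelled with Cy3, per the labels' protocols, and each was hybridised to 1 one-colour Agilent whole human genome array. The deposited scanner files hold an intensity per spot, background-subtracted and detrended per array by Agilent Feature Extraction (version 9.5.3.1 per the file headers, 12 per the submitters' processing notes). The deposited series table held the same intensity values, with no normalisation between arrays. Flags of 0 or 1 per spot, as deposited, served as filters.

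Signals were put on the log2 scale without outlier spots, and the 75th percentile of the non-control spots was subtracted on each array. Probes were kept where all 3 arrays of 1 or more groups were well above background (26898 of 41000), and the brightest stood for its gene (20355 genes). The 4 group means were estimated over all 12 arrays in limma 3.58.1 (R 4.3.3, residual degrees of freedom 8, prior 2.3), with Benjamini-Hochberg adjustment over all genes and a threshold of 0.05. The GC trend was fitted per array by loess with a span of 0.5, and both steps were tested on simulated data. The order of probes along a transcript was read from the hg17 coordinates in the files, and a human gene annotation was not used here.

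The members and the gene lists were chosen with earlier results of these data known. 2 genes of the lists are not reported here and are left out of the lists' counts and medians. Named with values are genes that passed a comparison or, with fewer than 4, its 4 smallest p, the catalytic and interferon-induced beta subunits, PSMD14, PSMD2, PSMD4, the activators, the inhibitor, and the brightest and dimmest probe of each subgroup. PSMB1, PSMB4, PSMC6, PSMD1 by probe, PSMD11, PSMD8, PSMC3 in S154D cells, NFE2L1, NFE2L2 and NFE2L3 were named after their values were seen. The same holds for the other probes of PSME1, PSME3, PSMF1 and PSMD12. Alternatives were normexp background correction, quantile normalisation, the deposited values uncentred, other filters on dim probes, the mean of a gene's probes, slide or replicate number as a block, removal of the GC trend, only the arrays compared, each array left out and, chosen after seeing the data, omission of slide 4. The comparison of probes by position was also chosen after seeing the data.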

Additional observations from a re-analysis of the deposited data

How the results depend on the processing

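The count of proteasome genes that passed in S154D cells with CDCA against DMSO, 4, was 1 with normexp background correction, 2 with the mean of all kept probes of a gene, and 0 with the deposited values uncentred, with no filter on dim probes, with slide as a block, with the GC trend subtracted and with only the arrays compared, and it ranged from 0 to 4 when 1 array was left out. Over all genes that comparison gave 1 call with the deposited values uncentred, 0 with no filter, slide as a block, the GC trend subtracted or only the arrays compared, and 0 to 2173 with 1 array left out, against 2073. It gave 0 without S154D_CDCA replicate 3 or S154D_DMSO replicate 3, 1 without S154D_DMSO replicate 1, and 722 without S154D_CDCA replicate 2, 978 without S154A_DMSO replicate 3, 1236 without S154A_DMSO replicate 1 and 1251 without S154A_CDCA replicate 1. In the other 4 comparisons the count of proteasome genes was 0 under all alternatives run.

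Over all genes, CDCA in S154A cells gave 27 calls, 15 with the deposited values uncentred, 7 with slide as a block, 12 with only the arrays compared, 14 without slide 4 and 14 to 28 with 1 array left out, each S154A array lowering it to between 14 and 17. S154D against S154A in DMSO gave 0, and 1 with the deposited values uncentred. S154D against S154A with CDCA gave 82, 194 with quantile normalisation, 9 with the deposited values uncentred, 31 with no filter, 147 with probes well above background on all 12 arrays, 3 with slide as a block, 47 with the GC trend subtracted, 14 with only the arrays compared, 51 without slide 4, and 19 without S154A_CDCA replicate 3 to 285 without S154D_CDCA replicate 1. The difference in response gave 30, 118 with quantile normalisation, 2 with the deposited values uncentred, 0 with no filter, 116 with probes well above background on all 12 arrays, 0 with slide as a block, 15 with the GC trend subtracted, 0 without slide 4, and 0 to 67 with 1 array left out, the highest without S154A_CDCA replicate 1. Quantile normalisation moved the share of higher calls to 37.6%, against 18.3%, for S154D against S154A with CDCA, and to 61.9%, against 30%, for the difference in response. The cause of these shifts was not tested.

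The replicate numbers did not pair the arrays evenly across comparisons: same-numbered arrays correlated between -0.234 and 0.357 in their deviations from the group means. Of 3 such pairs, 2 were over 0.1 for CDCA in S154A cells and 2 for S154D against S154A in DMSO. The number was 1 for CDCA in S154D cells and 0 for S154D against S154A with CDCA. With the replicate number as a block, 0 proteasome genes and 0 of all genes passed for CDCA in S154D cells, and 53 of all genes for S154D against S154A with CDCA and 6 for the difference in response. With the GC trend subtracted and the replicate block together the counts were 0 proteasome genes, 0, 46 and 5.

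The median change of the proteasome genes moved by more than 1 SD between arrays (0.0685) in 7 cases. Uncentred it was -0.12 for CDCA in S154A cells, 0.19 for CDCA in S154D cells, -0.19 for S154D against S154A in DMSO and 0.30 for the difference in response, while the median of all genes was then -0.14, 0.18, -0.24 and 0.32. It was 0.0055 for S154D against S154A with CDCA after quantile normalisation and 0.13 for the difference in response without slide 4. With 1 array left out it lay between -0.077, without S154D_DMSO replicate 3, and 0.042 for CDCA in S154D cells. Of the changes of 12 genes (those that passed a comparison or had one of its 4 smallest p) under these alternatives, 409 stayed on their side of the threshold, 67 no longer passed, all of them changes of PSMD2, PSMD4, PSMD10 or PSMD14 in S154D cells, and 0 turned round where the gene had passed. All 42 probes were well above background on all 12 arrays, and with 3 arrays a group their number limits the precision.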
